A study of Sus scrofa with 6 samples.

Results

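The muscle fibre's oxidative programme is set by a small circle of transcriptional regulators, and the expression of 9 of them was followed here in the longissimus dorsi (LD) muscle of Laiwu pigs. The 9 genes, chosen by name, are the coactivators PPARGC1A and PPARGC1B (PGC-1α and PGC-1β), the nuclear receptors PPARA, PPARD, ESRRA and ESRRG, the nuclear respiratory factor NRF1, the mitochondrial transcription factor TFAM and the calcium-responsive factor NFATC1. All 9 were found among the 31908 annotated genes of the deposited table, where they hold 49 of its 83119 transcripts, and all 9 were among the 12841 protein-coding genes tested.

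LD is the long muscle of the back, and the Laiwu is a fatty breed of North China. In total, 6 castrated males were sequenced with 1 library per pig. The S-H group had an extremely high intramuscular fat (IMF) content (LW63, LW70 and LW119) and the S-L group an extremely low one (LW82, LW88 and LW90). No treatment was given, and the ages of the pigs are not given in the sources used here. Each pig is 1 replicate, so that every group has n = 3.

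PGC-1α has no DNA-binding domain of its own. It docks on nuclear receptors such as the PPARs and the estrogen-related receptors, and on NRF1, and switches on genes of fatty acid oxidation and of the respiratory chain. NRF1 in turn drives TFAM, the protein that packs and transcribes the mitochondrial genome. NFATC1 enters the nucleus when calcineurin removes its phosphates, and it is known for maintaining the slow fibre programme. In mammalian muscle, slow oxidative fibres are known for high PGC-1α activity and fast glycolytic fibres for less of it.

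The values are FPKM, fragment numbers scaled to transcript length and library size, summed over all transcripts of a gene. Differences were tested with limma on log2(FPKM + 0.1) across all tested genes, and a gene passed when its unadjusted p was below 0.01 and its log2 fold change reached 1 in either direction, which are the thresholds of the study. The deposited values carry no read counts, so no counting error is given and the spread between the 3 pigs of a group gives the precision. Over all tested genes, the log2 fold change of S-H against S-L had a median of 0.21 on the FPKM scale and 0.0064 after division by median-ratio size factors, and a fold change is best read against that shift. Of the 9 listed muscle fibre markers 8 were found, and each was above 0 in all 6 libraries. They summed to 7521 to 13566 FPKM in S-H and 7712 to 10981 FPKM in S-L. Markers of other cell types were also detected, so values above 0 do not test the tissue label. In whole muscle, fewer cells of a type and less RNA per cell cannot be told apart.

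PPARGC1A (chromosome 8, 17841844 to 17961909 of Sscrofa11.1, the build of all coordinates here) was the single member that passed the thresholds, and it was lower in S-H. It had 10.0 FPKM in LW63, 22.4 FPKM in LW70 and 15.1 FPKM in LW119, against 25.5 FPKM in LW82, 76.0 FPKM in LW88 and 43.7 FPKM in LW90. The groups did not overlap, although LW70 and LW82 lay close together and LW88 stood well above the other S-L pigs. The mean was 15.8 ± 6.24 FPKM in the S-H pigs against 48.4 ± 25.6 FPKM in the S-L pigs (SD, n = 3 each) and thus 3.05 times as high in S-L. The log2 fold change was -1.54 (standard error 0.41). Its p was 0.00407 in limma and 0.533 after Benjamini-Hochberg adjustment, and an exact two-sided permutation of the 6 pigs gave p = 0.10, a value that no design of 3 against 3 can undercut. So 1 of the 9 regulators passed, where 1.36% of all tested genes passed in either direction and 0.195% passed as lower in S-H. No gene of the whole table had an adjusted p below 0.05 in limma, and 1049 of them (8.17%) had an unadjusted p below 0.05. The call rested on single pigs. Its log2 fold change was -1.25 without LW63, -1.15 without LW88 and -1.54 without LW90, and in each of these 3 fits the limma p rose above 0.01, so that PPARGC1A no longer passed. The summed adipocyte markers ran opposite to it, at 472 to 1338 FPKM in S-H and 277 to 405 FPKM in S-L, and their part in this difference was not tested.

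**Figure D1:**
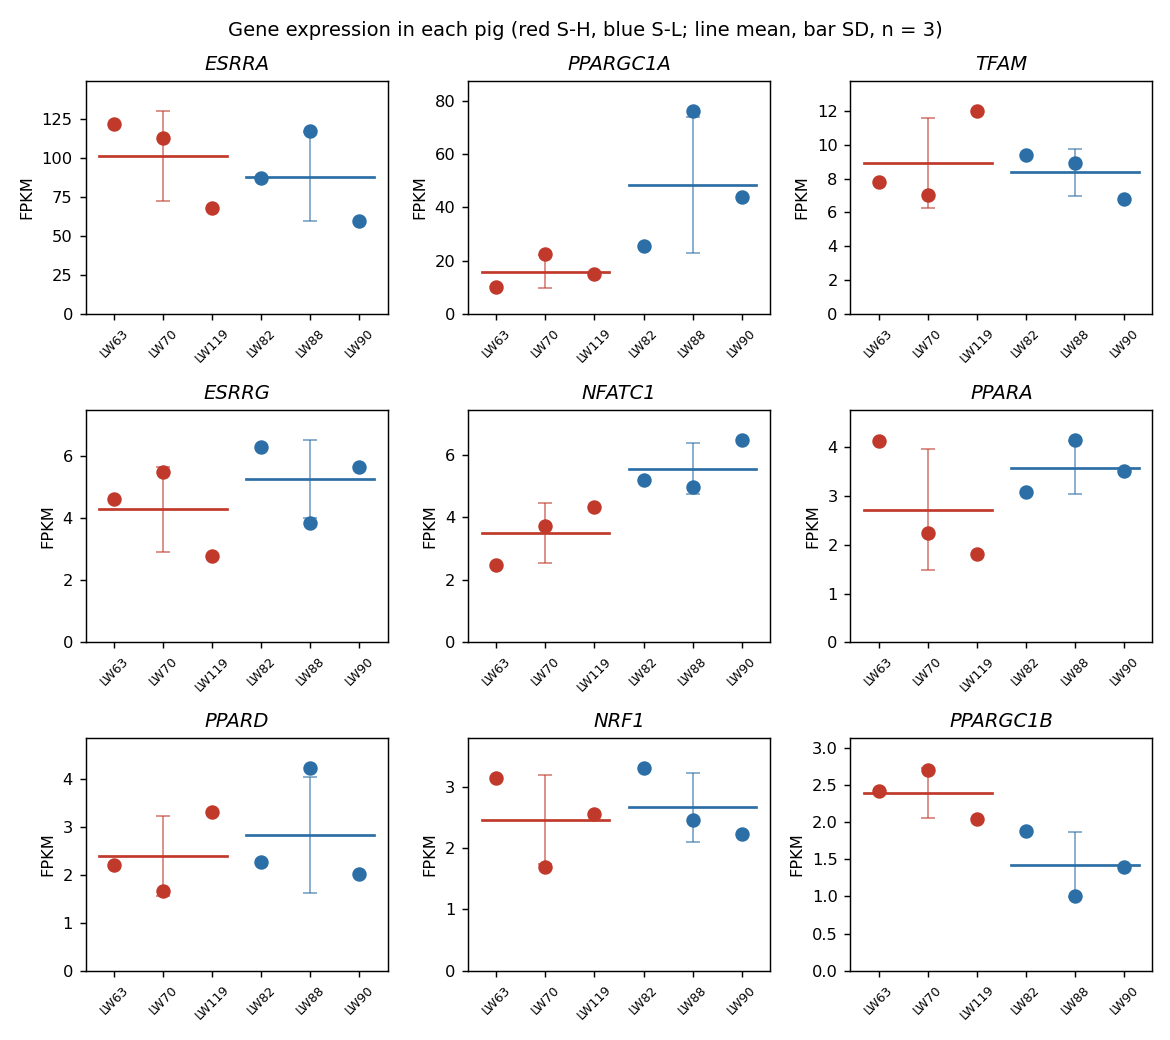
FPKM of each of the 9 regulators (vertical axes, linear and starting at 0) in the 6 pigs, with S-H in red and S-L in blue, horizontal lines for group means and bars for the SD of 3 pigs. On this scale PPARGC1A and NFATC1 lie lower in all S-H pigs than in all S-L pigs, and PPARGC1B lies higher. PPARGC1B overlaps with size factors, and NFATC1 with values scaled to an equal total per library. The groups overlap for the other 6 genes.

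PPARGC1B (chromosome 2, 150823373 to 150919378), the close relative of PPARGC1A with a similar set of partners, had its higher values in S-H but did not pass. It had 2.42 FPKM in LW63, 2.71 FPKM in LW70 and 2.05 FPKM in LW119, against 1.88 FPKM in LW82, 1.01 FPKM in LW88 and 1.39 FPKM in LW90. On this scale no S-L pig reached the lowest S-H pig, with LW119 and LW82 close to each other, but with size factors LW82 (1.86) lay above LW119 (1.78) and the groups overlapped. Its log2 fold change of 0.74 (standard error 0.31, adjusted p = 0.604 from limma) did not reach the thresholds, and it was 0.53 with size factors (adjusted p = 0.788 from limma). Of all tested genes, 13.1% had no overlap between the groups with S-H higher on the FPKM scale. The ratio of both coactivators within a pig does not depend on the scaling of the libraries. There were 4.13 FPKM of PPARGC1A per FPKM of PPARGC1B in LW63, 8.28 in LW70 and 7.39 in LW119, but 13.5 in LW82, 75.4 in LW88 and 31.3 in LW90. On the log2 scale this ratio was 2.33 units lower in S-H (-2.33, SD 0.54 in S-H and 1.24 in S-L, n = 3 each), with no overlap between the groups (exact two-sided permutation test, p = 0.10). Of the 6 such ratios computed, 3 did not overlap between the groups, the others of them being PPARGC1A to ESRRA (-1.76 on the log2 scale) and NFATC1 to PPARGC1B (-1.48). Each of these 3 is built from PPARGC1A, PPARGC1B or NFATC1, whose own values did not overlap on the FPKM scale. They therefore restate those values and add no separate support, and ratios of other gene pairs were not examined. The ratios of PPARGC1A to TFAM (-1.61), ESRRA to ESRRG (0.53) and PPARA to PPARD (-0.26) overlapped.

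Among the nuclear receptors, ESRRA (ERRα, chromosome 2, 7803510 to 7813836), the receptor through which PGC-1α reaches many respiratory chain genes, was the most abundant regulator of all. It had 122 FPKM in LW63, 113 FPKM in LW70 and 68.1 FPKM in LW119, against 86.8 FPKM in LW82, 117 FPKM in LW88 and 59.7 FPKM in LW90. Both groups covered nearly the same range. The log2 fold change was 0.21 (standard error 0.32, 95% interval from -0.51 to 0.93, adjusted p = 0.863 from limma), just below the median of all tested genes, and it was -0.011 with size factors, where its sign turned. The Ensembl span of ESRRA shares 2320 bases with TRMT112 and 3001 bases with PRDX5, and whether its quantification used the strand is not stated.

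ESRRG (ERRγ, chromosome 10, 6712841 to 7030063), the receptor known for high expression in slow oxidative fibres, had 4.60 FPKM in LW63, 5.46 FPKM in LW70 and 2.76 FPKM in LW119, against 6.27 FPKM in LW82, 3.84 FPKM in LW88 and 5.64 FPKM in LW90. The groups overlapped and the log2 fold change was -0.32 (standard error 0.32, adjusted p = 0.781 from limma). Most of this level did not come from annotated ESRRG transcripts. Transcripts assembled from the reads, named ESRRG-OT1 to ESRRG-OT4 in the deposited table, made up between 58.5% and 90.6% of the gene sum in a pig. The Ensembl transcripts alone gave 1.91 FPKM in LW63, 1.25 FPKM in LW70 and 0.454 FPKM in LW119, against 1.12 FPKM in LW82, 0.394 FPKM in LW88 and 0.528 FPKM in LW90. On those values the sign of ESRRG turned, with a log2 fold change of 0.67 (standard error 0.53, adjusted p = 0.721 from limma), again without passing.

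PPARA (chromosome 5, 3300708 to 3366361), the fatty-acid-sensing receptor that drives oxidation genes, had 4.13 FPKM in LW63, 2.24 FPKM in LW70 and 1.80 FPKM in LW119, against 3.08 FPKM in LW82, 4.15 FPKM in LW88 and 3.51 FPKM in LW90. LW63 reached the level of the highest S-L pig while the other S-H pigs lay below all of S-L. The log2 fold change was -0.46 (standard error 0.33, adjusted p = 0.700 from limma). PPARD (chromosome 7, 31222589 to 31295212), the form best known from skeletal muscle and endurance training, had 2.22 FPKM in LW63, 1.67 FPKM in LW70 and 3.32 FPKM in LW119, against 2.26 FPKM in LW82, 4.23 FPKM in LW88 and 2.02 FPKM in LW90. LW119 and LW88 were high in their groups and the ranges overlapped widely. Its log2 fold change was -0.21 (standard error 0.36, 95% interval from -1.02 to 0.60, adjusted p = 0.878 from limma).

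No difference was called in the arm that leads to the mitochondrial genome. NRF1 (chromosome 18, 18998905 to 19142628), a factor that binds many promoters of respiratory chain genes, had 3.14 FPKM in LW63, 1.70 FPKM in LW70 and 2.56 FPKM in LW119, against 3.30 FPKM in LW82, 2.46 FPKM in LW88 and 2.24 FPKM in LW90. TFAM (chromosome 14, 92259403 to 92279550) had 7.78 FPKM in LW63, 7.02 FPKM in LW70 and 12.0 FPKM in LW119, against 9.42 FPKM in LW82, 8.91 FPKM in LW88 and 6.80 FPKM in LW90. For both genes the groups overlapped, with LW70 lowest in NRF1 and LW119 highest in TFAM. The log2 fold change of NRF1 was -0.13 (standard error 0.31, 95% interval from -0.82 to 0.56, adjusted p = 0.914 from limma) and that of TFAM was 0.066 (standard error 0.28, 95% interval from -0.56 to 0.69, adjusted p = 0.951 from limma). With size factors TFAM turned to -0.15, and both intervals leave room for differences of either sign.

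NFATC1 (chromosome 1, 145911045 to 146017701) did not reach the thresholds, although its values in S-H and S-L were separated on the FPKM scale. It had 2.46 FPKM in LW63, 3.71 FPKM in LW70 and 4.32 FPKM in LW119, against 5.21 FPKM in LW82, 4.98 FPKM in LW88 and 6.48 FPKM in LW90. All S-H pigs were below all S-L pigs, which held for 1.7% of all tested genes in that direction. With size factors the groups were also separate, at 2.17 to 3.83 in S-H and 5.13 to 8.02 in S-L, as they then were for 6.52% of all tested genes in that direction. With values scaled to an equal total per library (TPM), LW119 lay above LW82 and LW88, and the groups overlapped. PPARGC1B did not overlap with TPM, so which regulators separate depends on the scaling. The log2 fold change of NFATC1 was -0.68 (standard error 0.28, adjusted p = 0.604 from limma), and -0.90 with size factors (adjusted p = 0.694 from limma). With TPM it was -0.55 (adjusted p = 0.487 from limma). The transcript with the highest mean, NFATC1-203, carried between 42.0% and 88.8% of the gene sum. In LW119 NFATC1-202 was slightly higher, at 1.98 against 1.81 FPKM. NFATC1-203 separated the groups only narrowly, with 3.06 FPKM in LW70 and 3.08 FPKM in LW90. NFATC1-204 was above 0 only in LW88 (1.02 FPKM) and LW90 (2.62 FPKM) and was listed at 0 in LW82 and in the 3 S-H pigs.

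**Figure D2:**
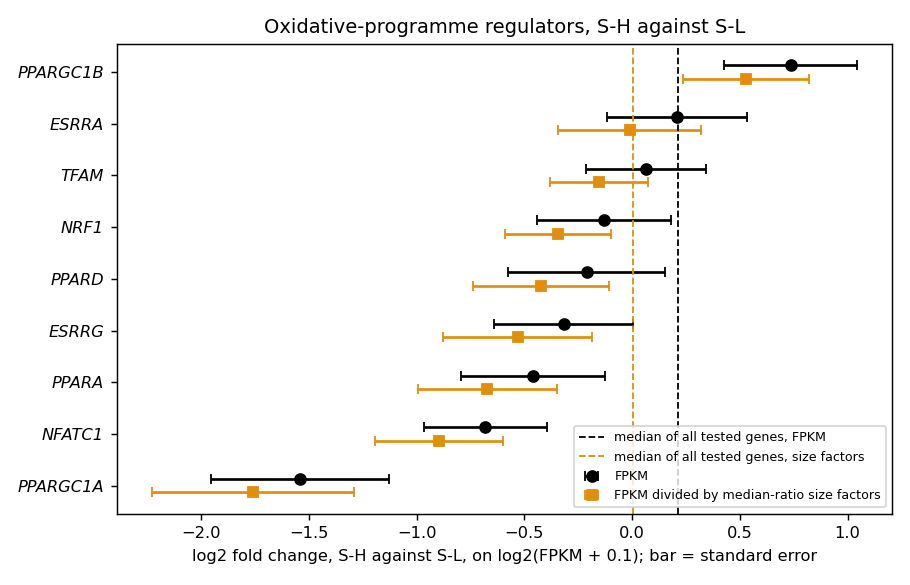
Log2 fold change of each regulator, S-H against S-L, with its standard error, on the FPKM scale (black circles) and after division by median-ratio size factors (orange squares), and dashed lines at the median of all tested genes on each scale. PPARGC1A lies farthest to the left at -1.54 and PPARGC1B farthest to the right at 0.74, and ESRRA lies next to the line of the median gene.

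Across the 9 genes, 3 had no overlap between the groups, against 14.8% of all tested genes, and 2 of these 3 were lower in S-H. With size factors 2 had no overlap, PPARGC1A and NFATC1, against 12.5% of all tested genes. A negative log2 fold change was found for 6 of the 9, against 25.9% of all tested genes, and 8 of the 9 lay below the median fold change of all genes, as 50% of genes do. With size factors 8 of the 9 were negative, against 49.1% of all tested genes. The median over the 9 was -0.21, and -0.42 with size factors, where the median gene was at 0.0064.

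By mean level over the 6 pigs the order was ESRRA (94.4 FPKM), PPARGC1A (32.1 FPKM), TFAM (8.65 FPKM), ESRRG (4.76 FPKM), NFATC1 (4.53 FPKM), PPARA (3.15 FPKM), PPARD (2.62 FPKM), NRF1 (2.57 FPKM) and PPARGC1B (1.91 FPKM). ESRRA was above PPARGC1A, PPARGC1A above TFAM and TFAM above ESRRG in all 6 pigs. ESRRG was above NFATC1 in 3 pigs and PPARD above NRF1 in 2 pigs, so these neighbours were not separated beyond their spread. PPARGC1A was also the member that varied most, 7.59 times between its lowest and highest pig, where the other 8 varied between 1.76 times (TFAM) and 2.69 times (PPARGC1B).

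The PPARGC1A locus holds 7 Ensembl and 7 assembled transcripts, and its value is spread unevenly over them. The largest was PPARGC1A-207, which covers only the last stretch of that span by coordinate, from 17941612 to 17961909. It had 2.97 FPKM in LW63, 15.3 FPKM in LW70 and 10.2 FPKM in LW119, against 14.5 FPKM in LW82, 31.1 FPKM in LW88 and 26.0 FPKM in LW90. This transcript made up between 29.7% and 68.1% of the gene sum, and here LW70 was above LW82, so that the groups overlapped.

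Of the 13 PPARGC1A transcripts above 0, all 13 had a lower mean in S-H, and each of the 12 that could be tested had a negative log2 fold change in the transcript fit. None of the 34 tested transcripts of the 9 regulators passed the thresholds, where 1.25% of 40336 transcripts did (limma). An unadjusted p below 0.05 was reached by 6 of them, against 5.57% of all transcripts, 5 from PPARGC1A and the sixth ESRRG-OT4. Transcripts of a gene share reads and are not independent of each other.

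LW88 differed in the make-up of the gene as well as in its level. PPARGC1A-205 (17850101 to 17961909) had 13.7 FPKM in LW88, against 1.73 FPKM in LW90, 1.24 FPKM in LW82 and 0.335 to 0.586 FPKM in the S-H pigs. The assembled transcript PPARGC1A-OT1 (17829708 to 17846849), which by coordinate begins before the Ensembl gene, had 8.91 FPKM in LW88, 1.73 FPKM in LW90 and 0.788 FPKM in LW82, against 0.114 to 0.378 FPKM in S-H. Both were higher in every S-L pig than in every S-H pig, and both were carried mainly by LW88. With the 7 Ensembl transcripts alone PPARGC1A had 13.4 ± 5.67 FPKM in the S-H pigs against 35.5 ± 14.4 FPKM in the S-L pigs (SD, n = 3 each), and it still passed (log2 fold change -1.39, standard error 0.40, adjusted p = 0.609 from limma).

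**Figure D3:**
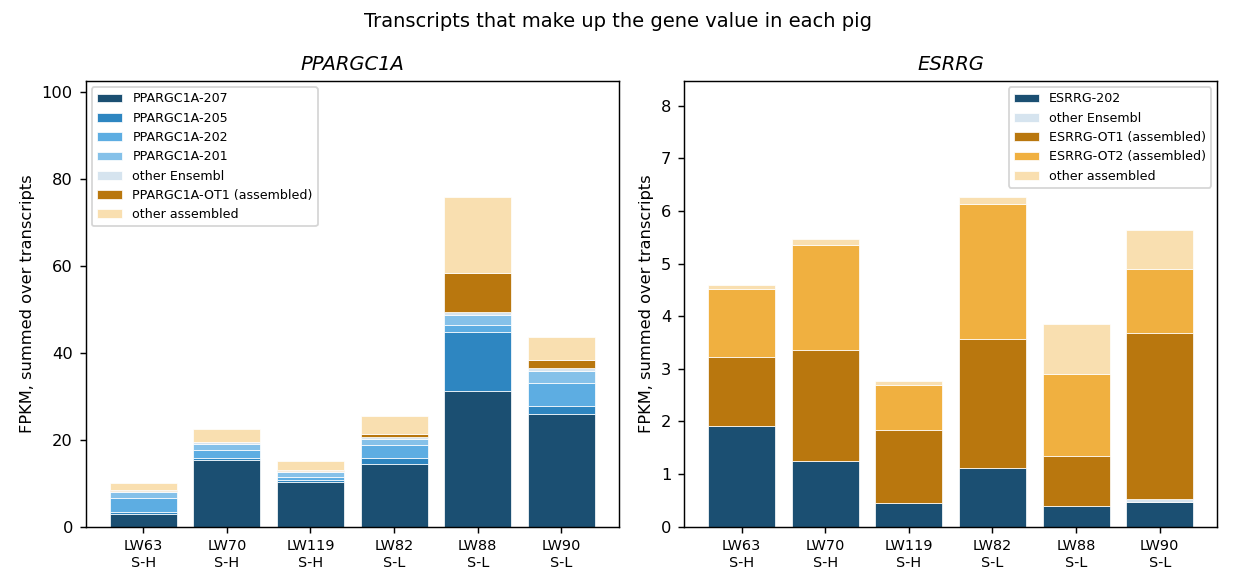
FPKM of PPARGC1A (left) and ESRRG (right) in each pig, stacked by transcript, with Ensembl transcripts in blue and transcripts assembled from the reads in orange. PPARGC1A-207 is the largest block of PPARGC1A in every pig but LW63, LW88 carries large blocks of PPARGC1A-205 and of assembled transcripts, and assembled transcripts make up most of ESRRG.

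PPARGC1B was divided almost evenly between its Ensembl transcripts and the assembled PPARGC1B-OT1, which made up between 35.2% and 57.9% of the sum. On the Ensembl transcripts alone the S-H pigs (0.861 to 1.45 FPKM) lay above the S-L pigs (0.653 to 0.844 FPKM), but with size factors they overlapped (0.750 to 1.28 against 0.673 to 0.872). The Ensembl transcripts had a log2 fold change of 0.60 (standard error 0.32, adjusted p = 0.645 from limma). The gene also houses ssc-mir-378-1, a microRNA of 80 bases within its span, at a mean of 1.02 FPKM over the 6 pigs. TFAM, ESRRA, PPARA and PPARD each came from 1 main Ensembl transcript, and NRF1 was spread over several of them.

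The regulators were then set beside the fibre type of the same pigs. A slow-minus-fast index was computed per pig, the mean log2(FPKM + 0.1) of 13 slow fibre genes minus that of 13 fast fibre genes. It was -0.90 in LW63, -0.86 in LW70 and -1.16 in LW119, against -1.38 in LW82, -2.81 in LW88 and -2.74 in LW90. The S-H pigs lay close together on the slow side, LW82 lay next to them, and LW88 and LW90 lay far on the fast side. The group difference was 1.34 log2 units (SD 0.16 in S-H and 0.80 in S-L, n = 3 each), and it is given as a description since this shift was known before. Its larger part lay in the fast genes, whose mean differed by -0.93 in S-H against S-L. The slow mean differed by 0.40 on the FPKM scale, where the median of all tested genes was 0.21. The fast mean was 9.61 in LW88 and 9.92 in LW90, against 8.42 (LW70) to 8.75 (LW82) in the other pigs.

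PPARGC1A was highest in the pigs with the faster profile. LW88 and LW90, with the lowest indices, had 76.0 and 43.7 FPKM. LW82, whose index of -1.38 was close to the -1.16 of LW119, had 25.5 FPKM. Within S-H this order did not hold. LW70, with the slowest index of all (-0.86), had 22.4 FPKM, against 15.1 FPKM in LW119 and 10.0 FPKM in LW63. PPARGC1B was lowest in the pigs with the faster profile and ran from 1.01 FPKM in LW88 to 2.71 FPKM in LW70. ESRRA showed neither order, since LW88 and LW70 at the far ends of the index had 117 and 113 FPKM. The index did not overlap between the groups, so no correlation over the 6 pigs is given, and IMF content and fibre profile cannot be told apart in these pigs.

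**Figure D4:**
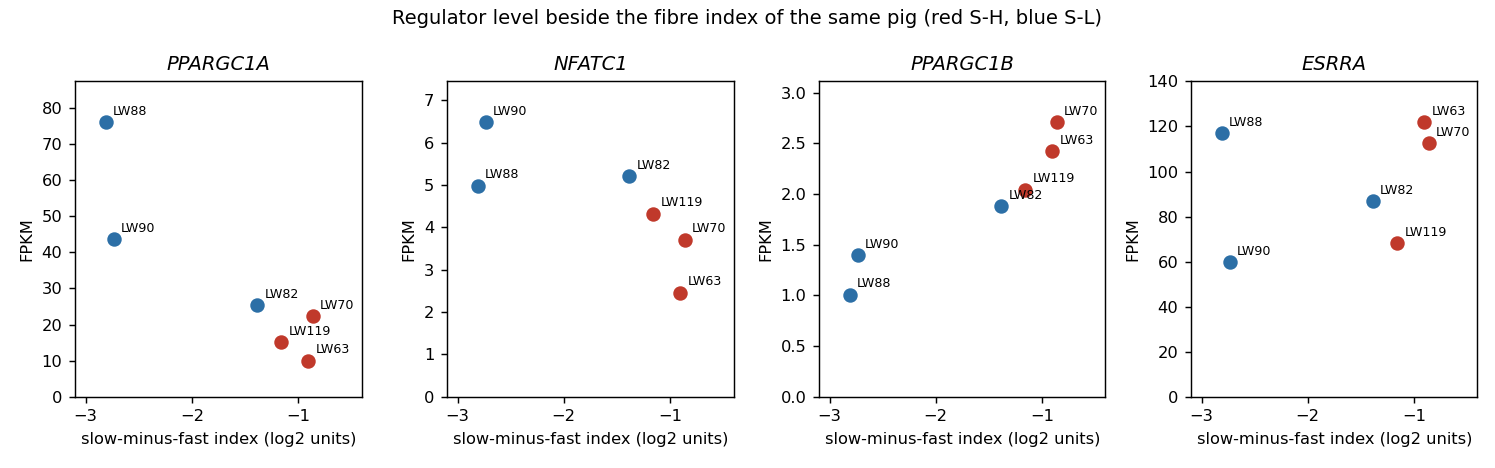
FPKM of PPARGC1A, NFATC1, PPARGC1B and ESRRA (vertical axes) against the slow-minus-fast index of the same pig (horizontal axes, log2 units, higher values meaning a slower profile), S-H in red and S-L in blue. LW88 and LW90 combine the lowest index with the highest PPARGC1A and the lowest PPARGC1B, and ESRRA shows no order.

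Among the 13 slow fibre genes none passed and 2 had an unadjusted p below 0.05 (limma), against 8.17% of all tested genes. A positive log2 fold change was found for 11 of the 13, against 74.1% of all tested genes on the FPKM scale. The median of the list was 0.51 on the FPKM scale and 0.29 with size factors. TPM3, a slow tropomyosin, had 615 ± 129 FPKM in the S-H pigs against 365 ± 63.2 FPKM in the S-L pigs (SD, n = 3 each, log2 fold change 0.74, adjusted p = 0.587 from limma). MYOZ2, a slow-fibre calsarcin that binds calcineurin, had 42.9 ± 10.8 FPKM in the S-H pigs against 27.1 ± 0.501 FPKM in the S-L pigs (SD, n = 3 each, log2 fold change 0.63, adjusted p = 0.591 from limma). With size factors the groups overlapped for TPM3 (413 to 662 in S-H against 315 to 442 in S-L). They also overlapped for MYOZ2 (29.0 to 47.3 in S-H against 26.2 to 33.6 in S-L). MYL2, the slow regulatory light chain and the most abundant gene of the list, had a log2 fold change of 0.38 (adjusted p = 0.747 from limma) with overlapping groups.

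All 13 fast fibre genes had a negative log2 fold change on the FPKM scale, against 25.9% of all tested genes. The median was -0.57, and -0.79 with size factors. An unadjusted p below 0.05 was reached by 4 of the 13 (limma), against 8.17% of all tested genes. The groups did not overlap for 5, against 1.7% of all tested genes in that direction. PVALB, the calcium-buffering parvalbumin, alone passed, where 0.195% of all tested genes passed as lower in S-H. It had 6.93 FPKM in LW63, 0.268 FPKM in LW70 and 2.05 FPKM in LW119, against 15.8, 12.9 and 11.7 FPKM in the S-L pigs (log2 fold change -2.92, adjusted p = 0.548 from limma). CASQ1, the fast calsequestrin, had 107 ± 22.8 FPKM in the S-H pigs against 212 ± 76.1 FPKM in the S-L pigs (SD, n = 3 each, log2 fold change -0.96, adjusted p = 0.577 from limma) and stayed just outside the thresholds. MYLPF, the fast regulatory light chain, overlapped between the groups with a log2 fold change of -0.48. The fast myosins MYH1, MYH2 and MYH4 were not found by symbol and are not part of the index.

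Where 1.36% of all tested genes passed, NR4A3 alone passed among 21 tested nuclear receptor partners and co-regulators. This orphan receptor, known as an early gene of muscle activity, had 2.56 FPKM in LW63, 2.39 FPKM in LW70 and 3.08 FPKM in LW119, against 6.04 FPKM in LW82, 10.7 FPKM in LW88 and 15.4 FPKM in LW90. The groups were far apart, and the log2 fold change was -1.87 (standard error 0.34, adjusted p = 0.264 from limma). PPARG, the adipocyte member of the PPAR family, had a log2 fold change of 1.11 and did not pass (adjusted p = 0.577 from limma). The median of the list was -0.045, and -0.26 with size factors.

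None of the 22 tested upstream kinases and activators passed (limma). An unadjusted p below 0.05 was reached by 1 of the 22, FLCN, where 8.17% of all tested genes reached it, so this count does not stand out. FLCN, folliculin, a brake on PGC-1 activity through AMPK, had 6.61 ± 1.23 FPKM in the S-H pigs against 4.06 ± 0.453 FPKM in the S-L pigs (SD, n = 3 each, log2 fold change 0.68, adjusted p = 0.577 from limma). MEF2D, a factor that acts on the PPARGC1A promoter in muscle, had a log2 fold change of -0.56 (adjusted p = 0.617 from limma). PRKAA2, the catalytic AMPK subunit of muscle and the most abundant gene of the list, had a log2 fold change of -0.21 (adjusted p = 0.798 from limma).

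None of the 13 tested calcineurin and NFAT genes passed (limma). An unadjusted p below 0.05 was reached by 2, the slow calsarcin MYOZ2 given above and NFATC2, where 8.17% of all tested genes reached it. NFATC2, a relative of NFATC1, had 0.733 ± 0.291 FPKM in the S-H pigs against 1.55 ± 0.399 FPKM in the S-L pigs (SD, n = 3 each), without overlap between the groups (log2 fold change -1.02, standard error 0.36, adjusted p = 0.577 from limma). MYOZ1, the fast-fibre calsarcin, had a log2 fold change of 0.10 (adjusted p = 0.943 from limma).

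The listed genes that these regulators are known to drive gave no calls. Of all tested genes 1.36% passed and 8.17% had an unadjusted p below 0.05 (limma). In lists of this size a lack of calls is near the former share, and it does not show that the genes were unchanged. Of 25 tested genes of fatty acid oxidation and fatty acid handling none passed and none had an unadjusted p below 0.05 (limma), and their median log2 fold change was 0.28 on the FPKM scale and 0.061 with size factors. The S-H pigs were spread widely. The summed level was 2976 FPKM in LW63, 3589 FPKM in LW70 and 1579 FPKM in LW119, with all S-L pigs at 2236 to 2424 FPKM. HADHA, a subunit of the mitochondrial trifunctional protein, had 150 ± 58.2 FPKM in the S-H pigs against 101 ± 6.87 FPKM in the S-L pigs (SD, n = 3 each). The groups overlapped, with a log2 fold change of 0.50 (adjusted p = 0.660 from limma). ETFB, which passes electrons from acyl-CoA dehydrogenases, had a log2 fold change of 0.86 (adjusted p = 0.658 from limma), and FABP3, the muscle fatty acid carrier, of 0.16 (adjusted p = 0.920 from limma).

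Of 31 tested genes of the tricarboxylic acid cycle and respiratory chain none passed and none had an unadjusted p below 0.05 (limma). Their median was 0.19, close to the median of all genes, and -0.025 with size factors, so the sign of this list depends on the scaling. The listed genes found summed to 3541 FPKM in LW63, 5057 FPKM in LW70 and 2206 FPKM in LW119. All S-L pigs lay between LW119 and LW63, at 2671 to 3090 FPKM, so the S-H pigs differed more among themselves. COX6A2, the muscle form of a cytochrome oxidase subunit, had the lowest p of the list (log2 fold change 0.51, adjusted p = 0.661 from limma), followed by SDHC of succinate dehydrogenase (0.56, adjusted p = 0.686 from limma). The most abundant gene was COX5B, at 351 ± 175 FPKM in the S-H pigs against 270 ± 24.7 FPKM in the S-L pigs (SD, n = 3 each), with overlapping groups. In the 16 tested genes of mitochondrial transcription and replication, which work beside TFAM, none passed and none had an unadjusted p below 0.05 (limma). Their median of 0.21 was close to that of all genes, with 8 of the 16 above the latter and 8 below it, and MTERF3 had the highest level of the list. GABPB2, a subunit of nuclear respiratory factor 2, had a log2 fold change of 0.53 (adjusted p = 0.660 from limma) and TEFM, the mitochondrial elongation factor, of 0.46 (adjusted p = 0.678 from limma).

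**Figure D5:**
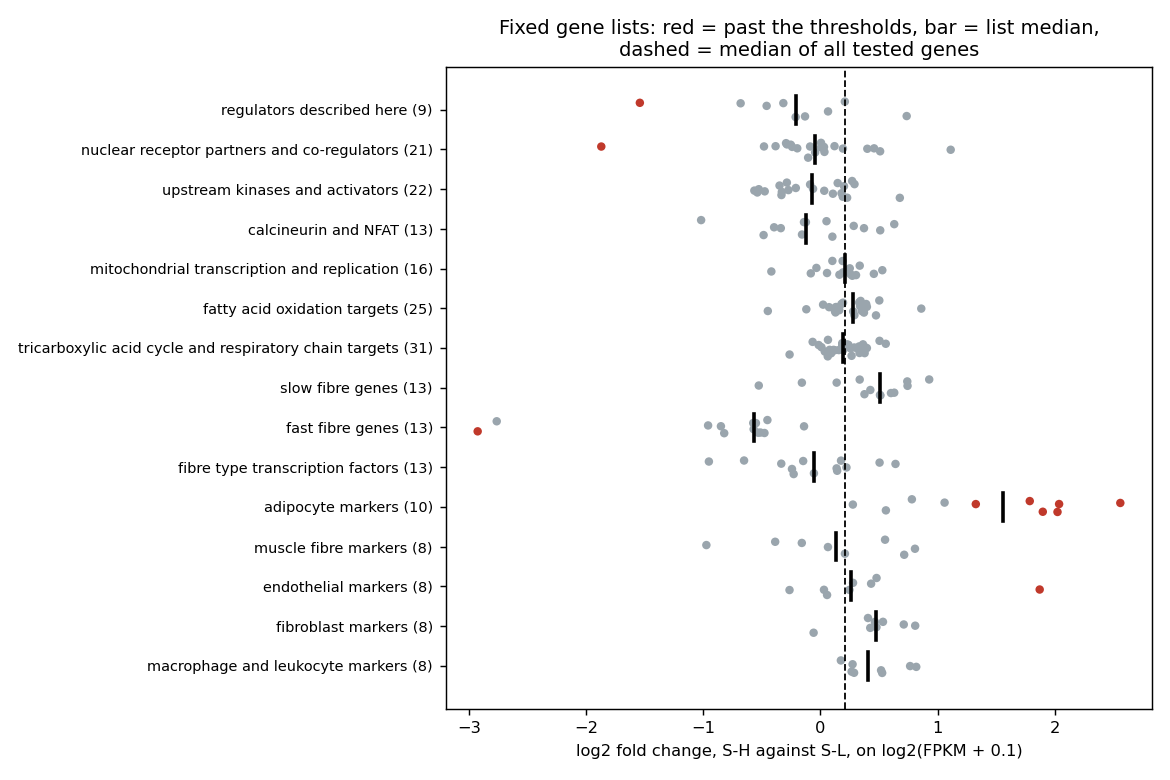
Log2 fold change, S-H against S-L, of every tested gene of the 15 gene lists (grey points, red where the thresholds were passed), with black bars at list medians, a dashed line at the median of all tested genes and the number tested in brackets. The red points among the regulators and their partners are PPARGC1A and NR4A3, and the oxidation and respiratory chain genes gather around the dashed line.

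Of 13 tested transcription factors of fibre type none passed (limma), and 2 had an unadjusted p below 0.05, against 8.17% of all tested genes. VGLL2, a muscle cofactor of TEAD proteins, had 7.51 ± 2.22 FPKM in the S-H pigs against 14.4 ± 3.20 FPKM in the S-L pigs (SD, n = 3 each), without overlap (log2 fold change -0.95, adjusted p = 0.573 from limma), and its fold was just short of the required one. FOXO1, a factor of fasting and atrophy that works with PGC-1α in the liver, had a log2 fold change of -0.65 (adjusted p = 0.607 from limma). TEAD1, the most abundant gene of the list, had -0.15 (adjusted p = 0.863 from limma).

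Over the 6 pigs FOXO1 was also the gene whose pattern was most like that of PPARGC1A, followed by ZC3H3, with a Pearson r of 0.976 and 0.966 on log2(FPKM + 0.1) among 9472 genes with a mean of at least 1 FPKM. For NFATC1 it was PYGM (r = 0.978), the muscle glycogen phosphorylase, for ESRRG it was MFN2 (r = 0.982), the mitofusin of the outer mitochondrial membrane, and for PPARGC1B it was TMEM150C (r = 0.997). These genes were picked as the highest among 9472 over only 6 pigs, and the values of r are a description only. PPARGC1A, NFATC1 and PPARGC1B did not overlap between the groups on this scale, so their r also reflects the group difference. An r above 0.95 was reached by 2 genes with PPARGC1A, by 36 with PPARGC1B and, at most, by 55 with TFAM.

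Markers of other cell types differed between the groups as well. Of the 10 tested adipocyte markers 6 passed as higher in S-H, against 1.17% of all tested genes in that direction, namely PLIN1, CIDEC, THRSP, ADIPOQ, LEP and FABP4, with log2 fold changes from 1.33 to 2.56. Their summed levels, given above, did not overlap between the groups, also with size factors, and no marker found was at 0 throughout. Of 8 endothelial markers CLDN5, a tight junction protein, passed as higher in S-H (log2 fold change 1.87, adjusted p = 0.423 from limma), and the summed level was 154 to 166 FPKM in S-H and 95.9 to 139 FPKM in S-L, which overlapped with size factors. PECAM1, the general endothelial marker, did not pass (log2 fold change 0.48, adjusted p = 0.620 from limma). None of the 8 fibroblast or the 8 macrophage and leukocyte markers tested passed or had an unadjusted p below 0.05 (limma), their summed levels overlapped between the groups, and 1 of the 9 listed leukocyte markers was at 0 in all pigs. Among fibroblast markers the log2 fold change was 0.81 for PDGFRA, 0.71 for the collagen COL3A1 and -0.058 for DCN, and among leukocyte markers 0.82 for CD68, 0.77 for AIF1 and 0.27 for CD163. None of the 8 muscle fibre markers passed (limma) and 1, ACTA1, had an unadjusted p below 0.05 (log2 fold change -0.97, adjusted p = 0.583 from limma), while DES, desmin, had 0.81. The part of these cell types in the values of the 9 regulators was not tested.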

How the data were processed

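Total RNA of the LD muscle from 3 pigs of each group was depleted of ribosomal RNA and sequenced from strand-specific libraries. The authors aligned the reads with HISAT2 to Sscrofa11.1, assembled and quantified transcripts with StringTie and deposited FPKM per transcript and pig. Versions are not given in the sources used here. The 21104 Ensembl transcripts without a symbol were deposited in TPM, and they were put on the FPKM scale with 1 factor per pig, from 0.639 to 0.847. After this step all 1994 gene values compared with the part of the study's gene table used here were equal, at a relative tolerance of 0.001. No transcript of the 9 regulators is affected.

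FPKM were summed over all transcripts of a gene ID. Genes were typed by the RefSeq annotation of Sscrofa11.1, by symbol (14547) or by a reciprocal overlap of at least 50% (4148), and 17220 were protein-coding. Of these, 12841 had a mean of at least 0.1 FPKM and were tested in limma (version 3.58.1, R 4.3.3), allowing a trend of variance with level, and adjusted by Benjamini-Hochberg over all of them. The other steps were run in Python 3.11.15 (pandas 2.3.3, numpy 2.4.6, matplotlib 3.10.9). The study tested with edgeR, and read counts were not used here. Single values were compared by exact permutation of the 20 assignments of the pigs. The fit was tested on simulated data. Nothing says which libraries were prepared together, so batches were not examined.

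The regulators and the 14 further gene lists, from general knowledge, were chosen with earlier results of these data known. Of each list, genes were named if they passed, had the 2 lowest p values or had the highest mean. For likeness, the genes with the highest Pearson r were named. Apart from these, TRMT112, PRDX5, ssc-mir-378-1, MYH1, MYH2, MYH4 and single transcripts were named after their values were seen. Values exactly as deposited, the use of Ensembl transcripts alone, the transcript fit, the overlap of the groups with size factors or TPM and the index without TNNI2 were likewise added after seeing the data.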

Additional observations from a re-analysis of the deposited data

How the results depend on the processing

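Each regulator was recomputed under 18 other settings, 12 of them other choices of pseudocount, minimum level, scaling, variance model or transcripts and 6 of them leaving out 1 pig. PPARGC1A was lower in S-H in all 18 and passed in 14, with log2 fold changes from -1.76 to -1.39 over the 12 choices (adjusted p from 0.411 to 0.705, limma) and from -1.93 to -1.15 with a pig left out. It did not pass without LW63, LW88 or LW90, or when its largest transcript stood for the gene (-1.54, adjusted p = 0.705, limma), and the cause was not tested. With no other regulator passing in any setting, the number of members that passed was then 0, as it was at an adjusted p below 0.05 (0), and it lay between 0 and 1 with a pig left out. PPARGC1B, PPARA, NFATC1 and PPARGC1A kept their sign in all settings. The sign turned for ESRRA with size factors (-0.011) and over left-out pigs (-0.043 to 0.47), for ESRRG with Ensembl transcripts alone (0.67), and for TFAM with size factors (-0.15), quantile normalization (-0.11) and left-out pigs (-0.16 to 0.22, with -0.076 without LW90). It also turned with left-out pigs for PPARD (-0.46 to 0.11, with 0.013 without LW70) and NRF1 (-0.32 to 0.11, with 0.028 without LW82). The number of all genes that passed was 175 (150 higher and 25 lower in S-H), 78 with a pseudocount of 1, 264 with TPM, 141 with size factors (85 higher and 56 lower), 0 by adjusted p, and 88 (without LW90) to 263 (without LW82) with a pig left out. The list genes that passed numbered 9, and 7 to 12 under other choices and 6 to 13 with a pig left out. The fibre index difference lay between 1.18 and 1.36 under other choices and between 1.09 and 1.80 with a pig left out. The number of regulators with no overlap between the groups was 3, and 2 with size factors, a setting added after seeing the data. Where 1 pig is left out, its group has 2 pigs. The deposited values carry no read counts, so the limit set by counting error is not given. No paired analysis was possible because S-H and S-L animals are not matched by any number in the labels.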

Other observations

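A few list genes carry values that rest on single transcripts. SIRT3, a mitochondrial deacetylase downstream of PGC-1α, was listed at 684 to 1284 FPKM in the 6 pigs, but between 98.7% and 99.8% of it in each pig came from 1 assembled transcript (chromosome 2, 43174 to 70760) that runs past the end of the Ensembl gene at 55101, and its Ensembl transcripts summed to between 1.36 and 3.86 FPKM. TNNI2, the fast troponin I, ranged from 30.6 FPKM in LW82 to 4451 FPKM in LW90, and its largest transcript made up between 1.40% and 98.4% of the sum. Without TNNI2 the slow-minus-fast index differed by 1.18 log2 units between the groups, and they still did not overlap.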
